A study of Mus musculus with 14 samples.

Results

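The 10 genes described here are the TGF-beta pathway and target genes Tgfb1, Tgfb2, Ltbp2, Tgfbr1, Tgfbr2, Smad7, Skil, Pmepa1, Tgm2 and Tgfbi, out of 28022 genes in the count matrix. They were chosen by pathway and by values measured in these same 14 libraries, and which values were used was not recorded, so their levels and changes are given as a description with no test. RNA sequencing was done on 7 conditions with 2 libraries each. Mouse embryonic fibroblasts (Fib) were the starting cells, taken from C57BL/6J embryos, and were converted with lentiviral Oct4 and Hnf4α into induced hepatic stem cells (iHepSCs), which carry both transgenes in all 4 culture conditions. The iHepSCs were grown as a flat layer alone (2D-iHs, labelled 2D-iHepSC), as a flat layer with induced endothelial cells (2D-iHEs, labelled 2D-iHepSCiEC), as organoids in a gel of type I collagen and Matrigel (iHLOs, labelled 3D-iHA), or in that gel together with induced endothelial cells (iHEAs, labelled 3D-iHEA). The induced endothelial cells (iECs) came from HF1, a human fibroblast line given ETV2, so a read of theirs entered the table only if it mapped to the mouse genome, and 30000 iHepSCs were combined with 20000 iECs. All 4 cultures received the same mixed medium with oncostatin M. C57BL/6J livers from mice aged 6 weeks (adult) and from mid-gestation embryos (fetal) completed the set.

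TGF-beta is secreted in a latent form, held in the matrix by latent TGF-beta binding proteins and freed by integrins, proteases or thrombospondin. The freed ligand joins the type II receptor Tgfbr2 and the type I receptor Tgfbr1, which phosphorylates Smad2 and Smad3, and these enter the nucleus with Smad4. Among the genes they switch on are inhibitors of the pathway itself (Smad7, Skil, Pmepa1) and proteins of matrix and cytoskeleton (Tgfbi, Tgm2, Ccn2). In the liver the pathway is known for restraining hepatocyte growth, for steering progenitors between the biliary and hepatocyte fates and for driving fibrosis through stellate cells.

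Total counts ranged from 20851489 to 35143325 per library. Levels are given as CPM, the count scaled to library size with TMM factors, changes as log2 fold changes with their standard errors (SE) from edgeR, and a gene was called changed where its Benjamini-Hochberg adjusted p over all genes fitted was under 0.05. The 2 libraries of a condition differed from each other by a chi-square of 3.05 to 3.67 per gene in 5 conditions, but by 11.5 in iHEAs and 13.4 in fetal liver, so small differences that involve these pairs carry more error. The labels do not say whether the libraries of a condition came from separate cultures or animals. Fibroblast markers summed to between 26426.5 and 27767.5 CPM over 11 genes in fibroblasts and to between 5.24 and 14.4 CPM in the 8 culture libraries. The hepatic label was borne out by some markers and not by others: Hnf4a, which is also one of the transgenes, lay at 164.6 to 216 CPM in the cultures, while Alb (albumin) lay at 0.0771 to 5.85 CPM, against 499787.7 to 530797.4 CPM in adult liver. The endothelial marker Pecam1 stayed at 0.0771 to 0.686 CPM in the cultures, with or without iECs, whereas Cdh5 lay at 365.6 to 453.2 CPM in all 8. In these bulk libraries, fewer cells of a type and less RNA per cell cannot be told apart.

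The stretches upstream of the ligand and receptor genes are shown because Tgfb1 and Tgfbr1 lay on opposite sides of the change between culture formats. RefSeq (GRCm38.p6) gave a start site for 6 of the 10 genes and a second one for Tgfbr1, and the 250 bases before the first are printed 5′ to 3′ with motif letters in capitals. The motifs searched on both strands were CAGAC and the palindrome GTCTAGAC (SMAD boxes), GGCGC (a SMAD-binding GC element), TGANTCA (AP-1) and CATTCC (TEAD). CAGAC reads GTCTG on the other strand, and a run of GGCGCC counts as a GGCGC site on each strand.
Tgfb1, chr7:25686752-25687001, plus strand: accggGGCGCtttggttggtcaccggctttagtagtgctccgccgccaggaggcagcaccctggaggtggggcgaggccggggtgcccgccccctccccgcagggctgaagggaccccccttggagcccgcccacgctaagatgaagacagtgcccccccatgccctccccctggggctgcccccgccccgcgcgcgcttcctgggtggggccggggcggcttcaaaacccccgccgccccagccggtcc
Tgfb2, chr1:186705990-186706239, minus strand: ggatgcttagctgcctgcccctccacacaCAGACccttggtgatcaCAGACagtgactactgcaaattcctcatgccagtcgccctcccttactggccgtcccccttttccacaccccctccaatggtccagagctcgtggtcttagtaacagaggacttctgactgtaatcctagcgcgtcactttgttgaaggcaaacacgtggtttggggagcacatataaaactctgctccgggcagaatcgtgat
Tgfbr1, chr4:47352972-47353221, plus strand: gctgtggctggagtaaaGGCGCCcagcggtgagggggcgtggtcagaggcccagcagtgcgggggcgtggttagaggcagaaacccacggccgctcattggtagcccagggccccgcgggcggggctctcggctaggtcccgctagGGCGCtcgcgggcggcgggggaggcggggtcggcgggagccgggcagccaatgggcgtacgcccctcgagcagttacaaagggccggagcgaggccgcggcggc
Tgfbr2, chr9:116175364-116175613, minus strand: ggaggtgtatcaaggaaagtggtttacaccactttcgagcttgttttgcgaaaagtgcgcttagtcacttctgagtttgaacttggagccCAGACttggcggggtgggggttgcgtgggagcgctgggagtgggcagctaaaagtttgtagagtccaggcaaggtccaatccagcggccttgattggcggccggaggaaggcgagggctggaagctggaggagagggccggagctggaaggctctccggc

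The Tgfb1 stretch held 1 GGCGC and no CAGAC, and the printed one of Tgfbr1 held 3 GGCGC sites and no CAGAC. The stretch before the other Tgfbr1 start (chr4:47385966-47386215, plus strand) differed, with 1 CAGAC, 0 GGCGC and 52.8% of G and C. The Tgfb2 stretch held 2 CAGAC sites and that of Tgfbr2 held 1, both without GGCGC. Among 32851 upstream stretches of the same length, 42.2% held CAGAC and 32% held GGCGC, so neither letter pattern is rare. The rarer patterns GTCTAGAC (0.167% of all stretches), TGANTCA (6.75%) and CATTCC (12.6%) were in none of the 4 printed. The share of G and C was 75.2% in the Tgfb1 stretch and 74.8% in the printed Tgfbr1 stretch, against 53.6% in Tgfb2 and 58.4% in Tgfbr2.

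Tgfb1 (chr7:25687002-25705077, GRCm38, GENCODE), which encodes the ligand best known from liver fibrosis, was the main TGF-beta ligand transcript of the cultures and fell to its lowest levels in 3D. It was at 15.7 and 16.4 CPM in fibroblasts, 36.8 and 38 in 2D-iHs, 45.1 and 43.5 in 2D-iHEs, 9.94 and 10.9 in iHLOs, 13.8 and 9 in iHEAs, 20.7 and 23.8 in adult liver and 73.7 and 64.4 in fetal liver. Fetal liver was highest, followed by the 2D cultures, and every 3D library lay below every 2D library and below the fibroblasts, while the levels of iHLOs and iHEAs overlapped. The log2 fold change of the 4 3D against the 4 2D libraries was -1.86 (SE 0.12), a 3.64-fold lower level.

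Tgfb2 (chr1:186622792-186705989) encodes a ligand that, like TGF-beta 1, is released from a latent complex. Its level was 106.2 and 99.4 CPM in fibroblasts, 3.4 and 3.99 in 2D-iHs, 5.42 and 4.03 in 2D-iHEs, 1.87 and 2.56 in iHLOs, 1.82 and 1.56 in iHEAs, 2.36 and 2.66 in adult liver and 8.24 and 20.5 in fetal liver. The fibroblasts stood far above the rest, 3D again lay below 2D (log2 fold change -1.07, SE 0.19), and the 2 fetal livers differed from each other more than any other pair. The third ligand gene, Tgfb3, was at 151 and 156.5 CPM in fibroblasts and at 0 counts in all 4 3D libraries, and fibroblasts exceeded 2D-iHs at least 1730-fold when the 2D-iHs were set at 3 counts per library.

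Divided by transcript length, Tgfb3 made up 67.5% and 69.4% of the 3 ligand transcripts in fibroblasts. Tgfb1 took over in every other condition, with 90.5% to 92.4% of the ligand transcripts in 2D culture and 83% to 89.7% in 3D culture. The summed ligand level was 66.1 and 66.7 CPM per kilobase of exon in fibroblasts, 7.9 to 9.89 in 2D, 2.05 to 3.05 in 3D, 5.21 and 5.84 in adult liver and 19 and 21.8 in fetal liver. The conversion to iHepSCs thus coincided with a change from mostly Tgfb3 to mostly Tgfb1, and 3D culture with less ligand transcript in all.

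**Figure D1:**
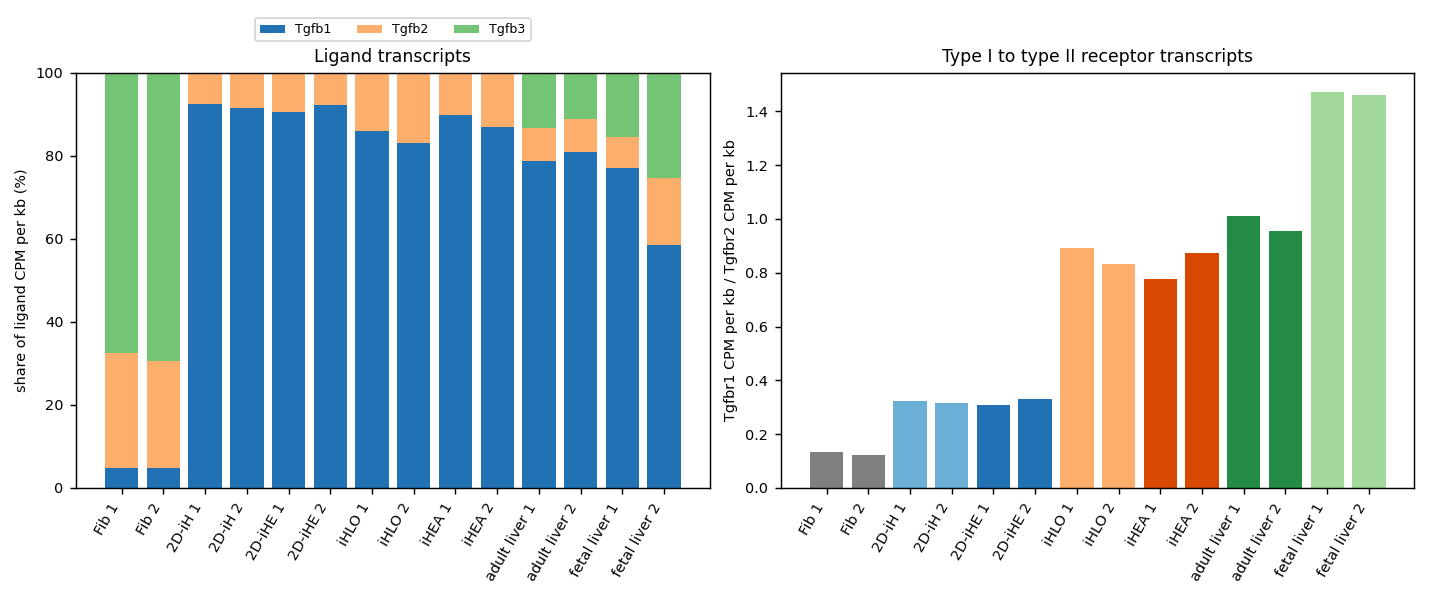
Ligand composition and receptor balance in the 14 libraries. Left bars give the share (%) of Tgfb1, Tgfb2 and Tgfb3 in their summed CPM per kilobase, and right bars the ratio of Tgfbr1 to Tgfbr2 CPM per kilobase. Tgfb3 dominates only the fibroblast bars among these 14, and the receptor ratio is 0.307 to 0.329 in 2D and 0.777 to 0.89 in 3D.

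Ltbp2 (chr12:84783212-84876532) encodes a matrix protein of the latent TGF-beta binding protein family that, unlike its relatives, does not bind latent TGF-beta. It was a fibroblast gene, at 332 and 344.3 CPM there, and rested on few counts elsewhere, with 0.195 and 0.377 CPM in 2D-iHs, 0.411 and 0.498 in 2D-iHEs, 3.39 and 0.81 in iHLOs, 0.424 and 0.142 in iHEAs, 2.81 and 3.36 in adult liver and 1.88 and 2.91 in fetal liver. The first iHLO library, with 111 counts, set the difference between formats. The log2 fold change of 3D against 2D was 1.76 (SE 0.77) with it and 0.41 without it, and that of iHEAs against iHLOs was -2.82 (SE 0.64) with it and -1.45 without it. Pdgfra, a fibroblast receptor, was at 6.39 CPM in that library and at 2.28 CPM in the other iHLO library. Its part in the Ltbp2 value was not tested.

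Tgfbr1 (chr4:47353222-47414931), the type I receptor kinase, was highest in 3D culture. Its level was 38.9 and 35.9 CPM in fibroblasts, 53.3 and 52.6 in 2D-iHs, 58.6 and 59.2 in 2D-iHEs, 102.9 and 95.3 in iHLOs, 87.3 and 99.6 in iHEAs, 48.3 and 46.4 in adult liver and 37.9 and 39.3 in fetal liver. All 4 3D libraries exceeded all others, with a log2 fold change over 2D of 0.82 (SE 0.07), and the fibroblast and fetal liver levels overlapped.

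Tgfbr2 (chr9:116084293-116175360), the receptor that binds the ligand first, took the opposite course. It stood at 369 and 372.2 CPM in fibroblasts, 207.2 and 208.2 in 2D-iHs, 239 and 225.5 in 2D-iHEs, 144.8 and 143.7 in iHLOs, 140.8 and 142.9 in iHEAs, 59.9 and 60.8 in adult liver and 32.4 and 33.7 in fetal liver. The order ran from fibroblasts through 2D and 3D culture to the livers, and the iHLOs and iHEAs differed by a log2 fold change of only -0.01 (SE 0.05). The change from 2D to 3D was -0.58 (SE 0.05) on the log2 scale. Per kilobase, Tgfbr1 amounted to 0.121 and 0.132 of Tgfbr2 in fibroblasts, 0.307 to 0.329 in 2D, 0.777 to 0.89 in 3D, 0.956 and 1.01 in adult liver and 1.46 and 1.47 in fetal liver, so the 3D ratios lay between those of the 2D cultures and adult liver.

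Smad7, an inhibitor that the pathway induces and that blocks Tgfbr1, was at 17.9 and 18.1 CPM in fibroblasts, 32.7 and 37.6 in 2D-iHs, 32.7 and 29.9 in 2D-iHEs, 22.2 and 23 in iHLOs, 28.9 and 25 in iHEAs, 11.6 and 11.9 in adult liver and 7.06 and 8.71 in fetal liver. The cultures exceeded fibroblasts and livers, and 3D lay below 2D by a modest -0.38 (SE 0.09) on the log2 scale, with the highest iHEA library close to the lowest 2D-iHE library.

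Skil (chr3:31095058-31122577) encodes SnoN, a corepressor that keeps SMAD targets silent until the signal removes it. It was at 38.2 and 37.2 CPM in fibroblasts, 107.1 and 104.7 in 2D-iHs, 118.7 and 120.3 in 2D-iHEs, 69.1 and 60.2 in iHLOs, 67.7 and 70.1 in iHEAs, 24.5 and 26.4 in adult liver and 26.1 and 24.8 in fetal liver. Like Smad7, it was higher in the cultures than in fibroblasts and higher there than in the livers, which overlapped, and 3D lay below 2D by -0.72 (SE 0.07) on the log2 scale.

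Pmepa1 (chr2:173224458-173276533), a membrane protein that holds back SMAD signalling and is itself a strong target, showed the largest co-culture difference of the 10 genes in 2D. Its level was 68.9 and 70.9 CPM in fibroblasts, 50.5 and 51.8 in 2D-iHs, 127.2 and 117.4 in 2D-iHEs, 36.6 and 31 in iHLOs, 67.1 and 61.9 in iHEAs, 4.51 and 5.13 in adult liver and 4.21 and 8.13 in fetal liver. Each culture with iECs exceeded its partner without them, so the 4 3D and 4 2D libraries overlapped when pooled (log2 fold change -0.78, SE 0.34), while within the pairs 3D was lower both without iECs (-0.55, SE 0.07) and with them (-0.89, SE 0.07).

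Tgm2 (chr2:158116402-158146436), the tissue transglutaminase that cross-links matrix proteins and helps to store latent TGF-beta, was the gene of this set with the highest level per kilobase in both livers. It was at 15.1 and 14.3 CPM in fibroblasts, 49.1 and 53.1 in 2D-iHs, 88.9 and 83 in 2D-iHEs, 70.5 and 66.5 in iHLOs, 86.6 and 78.1 in iHEAs, 268.2 and 276.8 in adult liver and 155.7 and 144.2 in fetal liver. The livers exceeded all cultures, and 2D-iHEs and iHEAs overlapped. The pooled change from 2D to 3D was 0.18 (SE 0.18), that without iECs 0.47 (SE 0.06) and that with iECs -0.03 (SE 0.06).

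Tgfbi (chr13:56609523-56639562) encodes a secreted adhesion protein named for its induction by TGF-beta. Its level was 236.2 and 236.5 CPM in fibroblasts, 4.65 and 5.56 in 2D-iHs, 3.78 and 3.07 in 2D-iHEs, 43.4 and 38.6 in iHLOs, 33.9 and 26.2 in iHEAs, 108.3 and 116 in adult liver and 51.1 and 67.5 in fetal liver. The 2D cultures were lowest, and 3D culture exceeded them by 3.08 (SE 0.17) on the log2 scale, an 8.48-fold difference and the largest of the 10 genes, in the direction opposite to Skil, Smad7 and most targets described next.

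**Figure D2:**
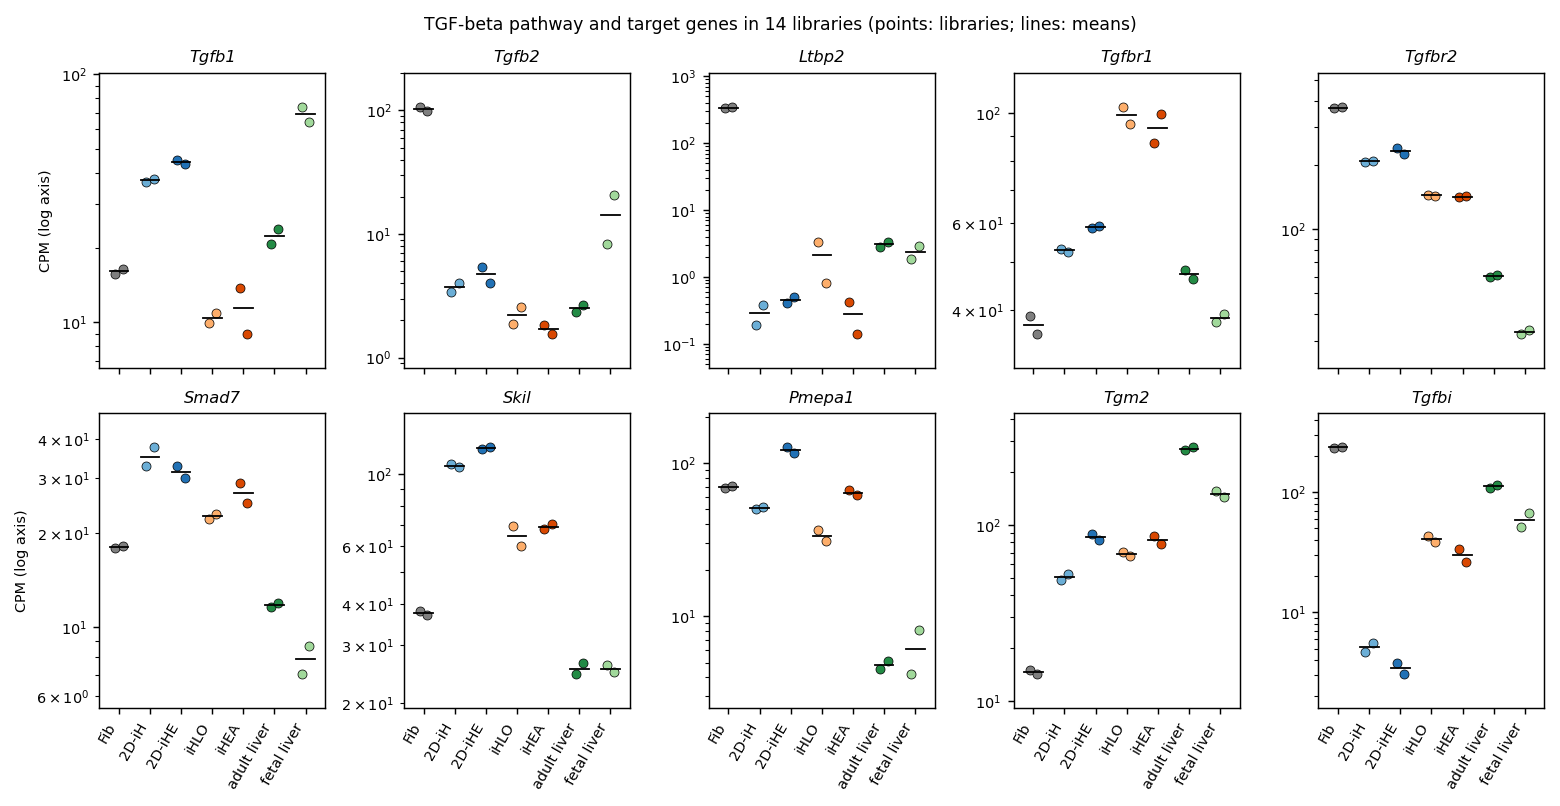
Levels of the 10 genes in CPM (log axis, a scale of its own in each panel) by condition. Points are libraries and lines are means of 2 libraries. Tgfbr1 peaks in the 3D cultures at 87.3 to 102.9 CPM, Tgfbi is lowest in the 2D cultures at 3.07 to 5.56 CPM, and Pmepa1 is higher in each culture with iECs than in its partner.

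Across the 10 genes, 5 had every 3D library below every 2D library, 2 had every one above, and 3 overlapped. Of all 13409 genes, 36.8% had every 3D library below every 2D library and 33.7% above, and 38.7% were called higher and 37.2% lower between these formats. Culture format was thus a large change for the transcriptome as a whole, and the median log2 fold change was -0.48 over the 10 genes and 0.01 over all genes. Between iHLOs and 2D-iHs, 4 of the 10 lay above and 6 below, against 41.6% and 45.3% of all genes (36.9% and 35.3% called higher and lower). Between iHEAs and 2D-iHEs, 2 lay above and 6 below, against 40.1% and 43.1% of all genes (36% and 34.9% called). Most of all genes thus separated in both of these comparisons, as did most members.

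The levels of some members followed each other over the 14 libraries, which differ in tissue, culture and depth. Pearson's r of log2 CPM was 0.93 for Smad7 and Skil, 0.86 for Smad7 and Pmepa1 and 0.82 for Skil and Pmepa1. It was 0.9 for Tgfbr2 and Pmepa1. The 3 inhibitors still differed in single comparisons. Against fibroblasts, 2D-iHs differed by 0.89 for Smad7, 1.42 for Skil and -0.52 for Pmepa1 on the log2 scale. With iECs in 2D, the difference was 1.29 for Pmepa1, 0.2 for Skil and -0.13 for Smad7. Tgfbi ran against Skil (r = -0.86) and Tgm2 against Tgfbr2 (r = -0.83). Among 14121 genes, the profiles most like each member were Cpsf3 and Cdkn3 for Tgfb1 (r = 0.985 and 0.974), Ttc3 and Hs6st2 for Tgfb2 (0.987 and 0.985), Angpt2 and Col8a1 for Ltbp2 (0.98 and 0.976), Kbtbd11 and Nck1 for Tgfbr1 (0.991 and 0.988) and Rps6ka4 and Rab12 for Tgfbr2 (0.995 and 0.992). For the inhibitors and targets they were Tnfrsf12a and Arid5a for Smad7 (0.991 and 0.99), Ets2 and Abi1 for Skil (0.996 and 0.994), Cfap69 and Plcb3 for Pmepa1 (0.979 and 0.97), Dym and Cybb for Tgm2 (0.99 and 0.989) and Zfp839 and Alpk1 for Tgfbi (0.989 and 0.98).

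The comparison of formats was then read from 59 other genes of the pathway, of which 52 were fitted in the cultures. In 3D, 11 were called higher and 31 lower, with a median log2 fold change of -0.3. The lower calls were densest among the genes that TGF-beta is known to induce: of 22 fitted, 17 were lower, 4 were not called and 1, the integrin subunit Itgb5 (log2 fold change 0.8, SE 0.1, adjusted p = 1.47e-05), was higher, with a median of -1.02. The direction of these targets was therefore shared by most of the list and was not that of Tgfbi. Markers of other cell types moved in the same comparison in both directions. Of 6 epithelial markers 3 were higher, led by Epcam (4.37, SE 0.17, adjusted p = 1.1e-09) and Cdh1 (1.16, SE 0.06, adjusted p = 1.65e-08), and 3 keratins were lower. Of 6 fitted fibroblast markers Pdgfra (3.04, SE 0.43, adjusted p = 4.89e-05) and Pdgfrb (4.87, SE 0.48, adjusted p = 2.71e-06) were higher, and Twist1 (-1.33, SE 0.18, adjusted p = 4.08e-05) and Col1a1, which is also a target, were lower. Of 5 fitted hepatocyte markers 2 were higher and 3 were not called, with Ttr at 1.29 to 2.8 CPM in 2D and 77.2 to 89.4 CPM in 3D. Of 2 fitted stellate cell markers 1 was higher and 1 lower. The part of these markers in the target values was not tested.

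Ccn2, a matricellular growth factor that YAP with TEAD also induces, lay between 397.6 and 535.2 CPM in 2D culture and between 39.6 and 50.7 CPM in 3D culture (log2 fold change -3.33, SE 0.12, adjusted p = 7.25e-10). Lox, the collagen cross-linking oxidase, was called lower in 3D (adjusted p = 1.38e-05) on 57 to 123 counts per 2D library against 0, 0, 8 and 0 counts in the 3D libraries, and 2D-iHs exceeded iHLOs at least 20-fold with the iHLOs set at 3 counts per library. The transcription factors of epithelial to mesenchymal transition Snai1 (-2.79, SE 0.21, adjusted p = 2.25e-07) and Snai2 (-2.65, SE 0.2, adjusted p = 2.21e-07) and the cell cycle inhibitor Cdkn2b (-2.35, SE 0.15, adjusted p = 5.71e-08) were lower as well. Their direction was that of Tgfb1, Smad7 and Skil and opposite to that of Tgfbr1.

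Co-receptors changed in both directions. Cd109, a surface protein that promotes removal of TGF-beta receptors, lay between 48.8 and 54.3 CPM in 2D culture and between 1.22 and 1.57 CPM in 3D culture (log2 fold change -5.22, SE 0.08, adjusted p = 3.84e-12), and endoglin (Eng) was lower by -1.35 (SE 0.28, adjusted p = 0.000943). Tgfbr3, betaglycan, which presents ligand to Tgfbr2, went from 10.6 to 11 CPM in 2D culture to 48.6 to 58.3 CPM in 3D culture (2.33, SE 0.07, adjusted p = 1.13e-10). Acvrl1, the endothelial type I receptor ALK1, was higher by 3.04 (SE 0.42, adjusted p = 4.57e-05), from 0.251 to 0.471 CPM in 2D to 1.57 to 5.08 CPM in 3D. Summed endothelial markers also differed, from between 409.6 and 485.5 CPM in 2D to between 872.3 and 1368.6 CPM in 3D. The sum was highest in the iHLOs, which held no iECs. Of 5 fitted markers 4 were called higher and 1 was not called. Vwf went from between 15.1 and 28.1 to between 423.1 and 785.6 CPM, while Cdh5 overlapped. Kdr, which was not fitted, went from between 0.314 and 0.697 to between 0 and 0.125 CPM. The part of these markers in the Acvrl1 and Tgfbr3 values was not tested.

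Of 8 fitted genes for latency and activation, 5 were lower and 3 higher in 3D. Ltbp1 (-2.52, SE 0.19, adjusted p = 2.15e-07) and Ltbp3 (-1.12, SE 0.12, adjusted p = 5.21e-06), which bind latent ligand, were lower, whereas Ltbp4 (1.37, SE 0.12, adjusted p = 7.26e-07) and the ligand-processing protease Furin (1.04, SE 0.06, adjusted p = 2.46e-08) were higher. The epithelial activator integrin Itgb6 was lower by -0.6 (SE 0.1, adjusted p = 0.000248). Among 13 inhibitors and regulators, 4 were higher, led by the pseudoreceptor Bambi (1.62, SE 0.1, adjusted p = 3.67e-08), and 5 were lower, shares near the 38.7% and 37.2% of all genes. The SMAD proteins that carry the signal moved little, with -0.24 for Smad2 (SE 0.04, adjusted p = 0.000132), -0.24 for Smad3 (SE 0.03, adjusted p = 5.08e-05) and 0.06 for Smad4, which was not called. In the BMP branch 5 of 13 fitted genes were higher and 5 lower, and its Id genes, inhibitors of differentiation factors, were split. Id2 had the largest increase (1.76, SE 0.2, adjusted p = 7.44e-06), Id3 was lower (-1.15, SE 0.16, adjusted p = 3.68e-05) and Id1 was at -0.24 (SE 0.11, adjusted p = 0.0613).

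Without iECs the format comparison gave 11 pathway genes higher and 30 lower, and with them 11 higher and 29 lower. In iHLOs against 2D-iHs, Acvrl1 (3.63, SE 0.31, adjusted p = 2.45e-07) and Tgfbr3 (2.46, SE 0.06, adjusted p = 2.93e-12) were the largest increases, and Cd109 (-5.31, SE 0.1, adjusted p = 3.1e-13) was the largest decrease after Lox. In iHEAs against 2D-iHEs, Tgfbr3 (2.2, SE 0.07, adjusted p = 9.08e-12) and Id2 (2.18, SE 0.08, adjusted p = 6.37e-11) led the increases. Among the largest decreases there was that of the activin antagonist follistatin (Fst; -5.25, SE 0.31, adjusted p = 5.93e-09), which had 372 and 234 counts in 2D-iHEs and 13 and 2 in iHEAs.

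**Figure D3:**
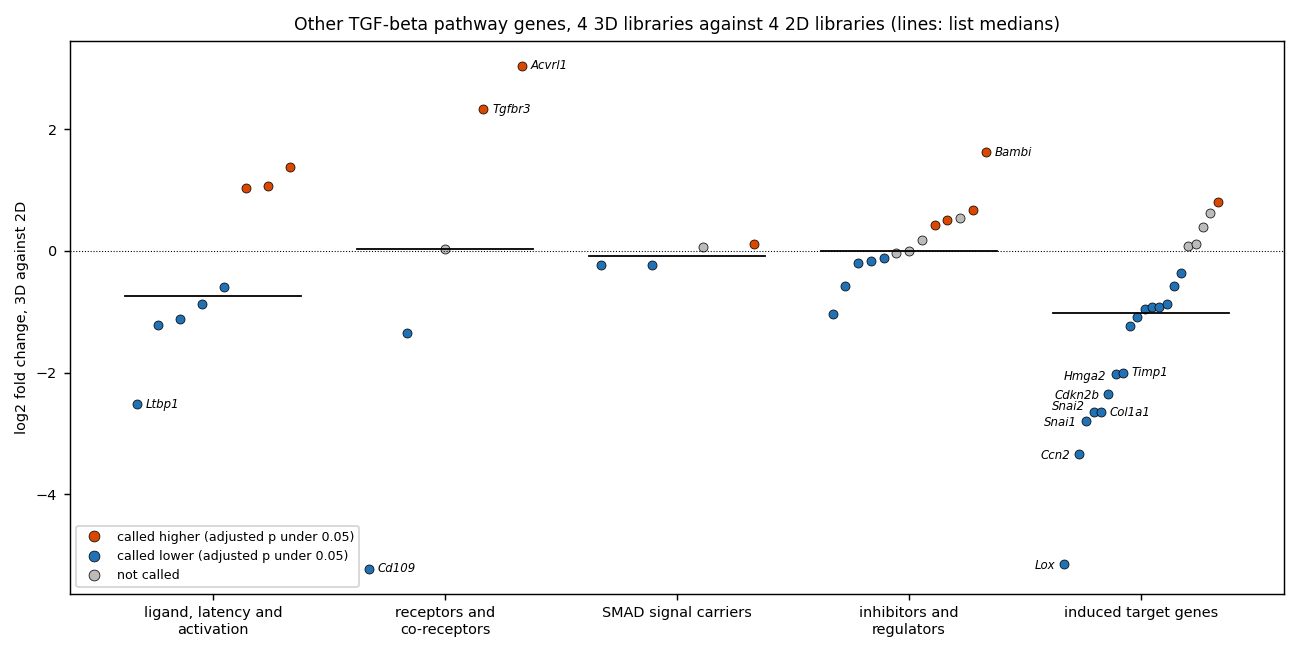
Log2 fold change of 51 of the 52 fitted pathway genes other than the 10 members, 4 3D libraries against 4 2D libraries, by list. Points are genes coloured by call and lines are medians of all fitted genes of a list. Target genes lie mostly below 0, with a median of -1.02, while receptors and co-receptors spread from -5.22 to 3.04.

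With iECs in 2D, most members and several known targets stood at higher levels than without them. The libraries were mixed, and the part of human iEC reads that mapped to the mouse genome was not tested. This holds for all values with iECs, those of the iHEAs included. Of the 10 members, 8 had both 2D-iHE libraries above both 2D-iH libraries, 1 had them below and 1 overlapped. Of all genes, 21% had both 2D-iHE libraries above and 32.6% below, and 4.26% were called higher and 3.92% lower. Pmepa1 differed by 1.29 (SE 0.07) on the log2 scale, a 2.44-fold difference, and Tgm2 by 0.78 (SE 0.06), while Tgfb1, Tgfb2, Tgfbr1, Tgfbr2 and Skil differed by 0.18 to 0.4, each with an SE of 0.05 to 0.19. Tgfbi was the exception, with -0.52 (SE 0.18), Smad7 overlapped (-0.13, SE 0.08), and Ltbp2 (0.68, SE 0.8) rested on 7 to 16 counts. The median over the 10 was 0.24, against 0 over all genes.

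Of the 52 other pathway genes, 12 were called higher and 2 lower in 2D-iHEs. The 12 included 7 of the 22 targets, namely Ccn2 (0.45, SE 0.05, adjusted p = 0.000326), Itgb5, Pdgfb (0.63, SE 0.07, adjusted p = 0.000165), Sphk1 (0.86, SE 0.13, adjusted p = 0.0013), Bhlhe40, Gadd45b and Col1a1, with 0 targets lower by edgeR or DESeq2 and 2 lower at an unadjusted p under 0.05. Col1a1, the type I collagen chain, had the largest increase (1.96, SE 0.2, adjusted p = 9.61e-05), from 2.59 and 2.92 CPM to 11.3 and 9.71 CPM, which is far below the 10326 and 11109.9 CPM of fibroblasts. Summed fibroblast markers, a list that includes Col1a1, were at 5.24 and 5.75 CPM in 2D-iHs and between 12.3 and 14.4 CPM in 2D-iHEs. Without Col1a1 the other 10 markers summed to 2.65 and 2.83 CPM in 2D-iHs and to 3.06 and 2.61 CPM in 2D-iHEs, which overlapped. The part of the human iECs in the Col1a1 value, and in those of the other genes called higher, was not tested. Of 5 fitted endothelial markers, 3 were lower in 2D-iHEs, with a median of -0.84, and Vwf went from 28.1 and 26.3 to 15.5 and 15.1 CPM. Of 5 fitted hepatocyte markers, 3 were also lower (Alb, Ttr and Hnf4a), with a median of -0.71, the Alb level of 2D-iHs being 5.85 CPM in the first library and 0.283 CPM in the second. The part of these markers in the co-culture values was not tested. The 2 pathway genes called lower were Smad6 (-0.76, SE 0.09, adjusted p = 0.000208), an inhibitor that BMP induces, and Fkbp1a (-0.4, SE 0.05, adjusted p = 0.000255), which holds the type I receptor inactive. The count of higher genes fell to 4 without the first 2D-iHE library, to 6 without the first 2D-iH library and to 7 without the second.

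The BMP branch signals through Smad1 and Smad5 and is read out by the Id genes. Of its 13 fitted genes, 9 were not called, 4 were lower in 2D-iHEs and 0 were higher by edgeR or DESeq2, with 1 higher at an unadjusted p under 0.05, and the median log2 fold change was -0.01. The 4 were Id2 (-0.88, SE 0.08, adjusted p = 5.52e-05), Id3 (-0.63, SE 0.06, adjusted p = 6.2e-05), Id1 (-0.44, SE 0.06, adjusted p = 0.000727) and the ligand Bmp6 (-0.4, SE 0.07, adjusted p = 0.00361). Id1 was at 339.9 and 368.9 CPM in 2D-iHs and 272.4 and 239.3 CPM in 2D-iHEs, and Id2 went from 71.2 and 77.4 to 40.2 and 39.2 CPM. The same libraries thus held 7 called increases among 22 TGF-beta targets and decreases of Id1, Id2 and Id3, with 15 targets not called. In the activin branch only Fstl3, a follistatin-like inhibitor, was called among 8 fitted genes (0.74, SE 0.14, adjusted p = 0.00599).

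In 3D fewer members separated with iECs than in 2D, and so did fewer of all genes. The iHEA libraries also differed more from each other than the 2D-iHE libraries, with a chi-square per gene of 11.5 against 3.55. Of the 10 members, 3 had both iHEA libraries above both iHLO libraries and 4 below. Of all genes, 14.1% lay above and 25.9% below in this way, and 1.19% were called higher and 1.07% lower. Pmepa1 again differed most among the well-counted members, with 0.95 (SE 0.07). The other 2 that lay above were Tgm2 with 0.28 (SE 0.06) and Smad7 with 0.27 (SE 0.08), the latter at 0.18 without the first iHEA library and 0.35 without the second. Below lay Tgfbi with -0.43 (SE 0.1), Tgfb2 with -0.37 (SE 0.23), Ltbp2 with -2.82 (SE 0.64) and Tgfbr2 with -0.01 (SE 0.05). Pmepa1, Tgm2 and Tgfbi had the same sign in 3D as in 2D, whereas Tgfb2, Ltbp2 and Tgfbr2 lay above with iECs in 2D and below with them in 3D. The Tgfb2 value in 3D was -0.12 without the second iHLO library, and that of Tgfbr2 was smaller than its SE. Ltbp2 rested on 7 to 16 counts per library in 2D, and on 111 and 26 counts in iHLOs and 14 and 4 in iHEAs.

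Of the other 52, only Itgb6 was called higher (0.4, SE 0.07, adjusted p = 0.0119), and 3 were lower, among them Col1a1 (-1.47, SE 0.33, adjusted p = 0.0382) and Acvrl1 (-1.39, SE 0.25, adjusted p = 0.013). Endothelial markers were lower alongside Acvrl1, with 3 of 5 fitted called lower (Tie1, Tek and Vwf) and a median of -0.57, and their sum of 8 genes went from between 1233.7 and 1368.6 CPM in iHLOs to between 872.3 and 951 CPM in iHEAs. Vwf was at 673.9 and 785.6 CPM in iHLOs and 466.5 and 423.1 CPM in iHEAs, and the part of these genes in the Acvrl1 value was not tested. The 3 lower calls were lost without the first iHLO library, and 9 genes were called higher without the second iHEA library. In the activin branch the subunits Inhbb (1.76, SE 0.32, adjusted p = 0.013) and Inhba (0.58, SE 0.13, adjusted p = 0.0447) were higher, on 16 and 17 counts of Inhbb in iHLOs and 71 and 35 in iHEAs. In the BMP branch 0 genes were called in 3D by edgeR, 3 had an unadjusted p under 0.05 and DESeq2 called 1, and Id3 had -0.25 (SE 0.06, adjusted p = 0.072).

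The test of the difference between the co-culture effects in 3D and in 2D called 2 pathway genes higher and 6 lower, against 1.52% and 1.62% of all genes. Col1a1 (-3.44, SE 0.38, adjusted p = 0.000498), Pdgfb (-0.68, SE 0.1, adjusted p = 0.00375) and Ccn2 (-0.64, SE 0.08, adjusted p = 0.00147) had a lower effect of iECs in 3D than in 2D. Smad6 (0.6, SE 0.12, adjusted p = 0.0152) and Fkbp1a were the 2 higher. In the BMP branch Id1, Id2, Id3 and Bmp6 had a higher effect in 3D than in 2D (Id2 0.72, SE 0.11, adjusted p = 0.00375). In 3D itself these 4 were not called, with -0.05 for Id1, -0.15 for Id2, -0.25 for Id3 and 0.1 for Bmp6. These counts moved when single libraries were left out, between 0 and 5 for the higher and between 4 and 12 for the lower pathway genes, reaching 12 lower without the first iHEA library, 5 higher without the second, and 0 higher without the second 2D-iH library or either 2D-iHE library. For the members, the difference of effects was -0.5 (SE 0.09) for Tgm2, -0.34 (SE 0.1) for Pmepa1 and 0.41 (SE 0.12) for Smad7, given without a test.

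**Figure D4:**
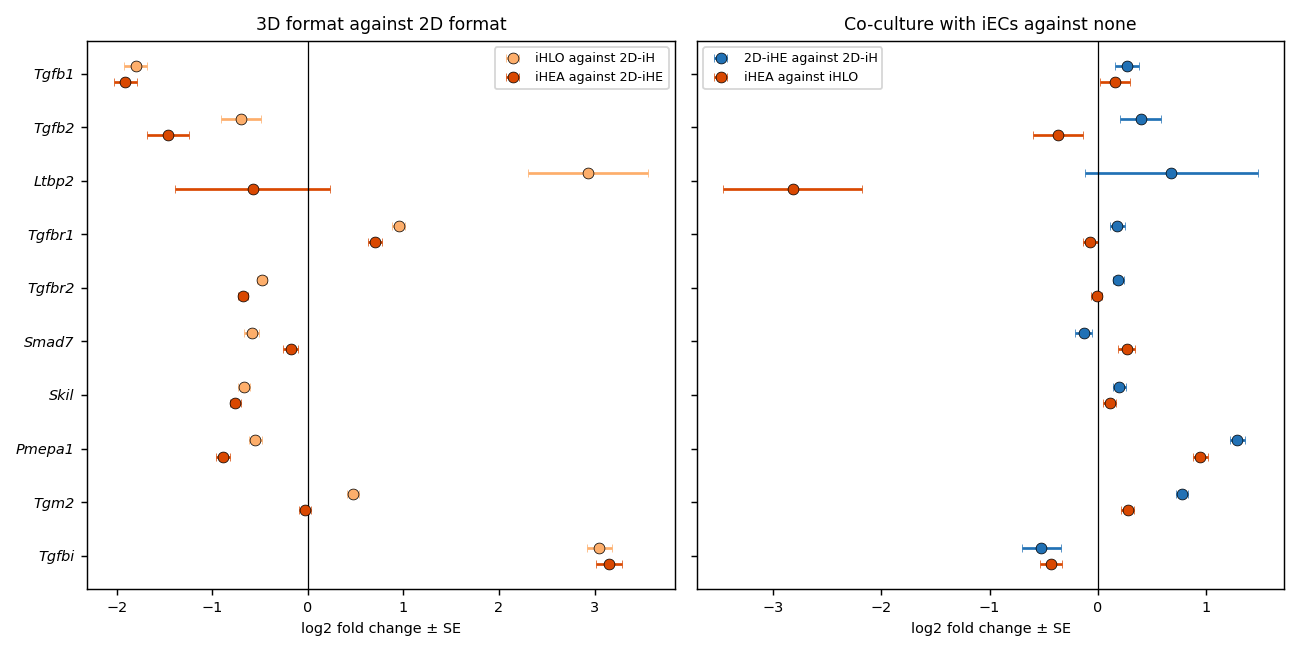
Log2 fold changes of the 10 genes with their SE (bars). The left panel compares 3D with 2D culture without and with iECs, and the right panel compares cultures with and without iECs in 2D and in 3D. Tgfb1 lies at -1.8 and -1.91 and Tgfbi at 3.05 and 3.15 in the left panel, and Pmepa1 lies at 1.29 and 0.95 in the right panel.

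**Figure D5:**
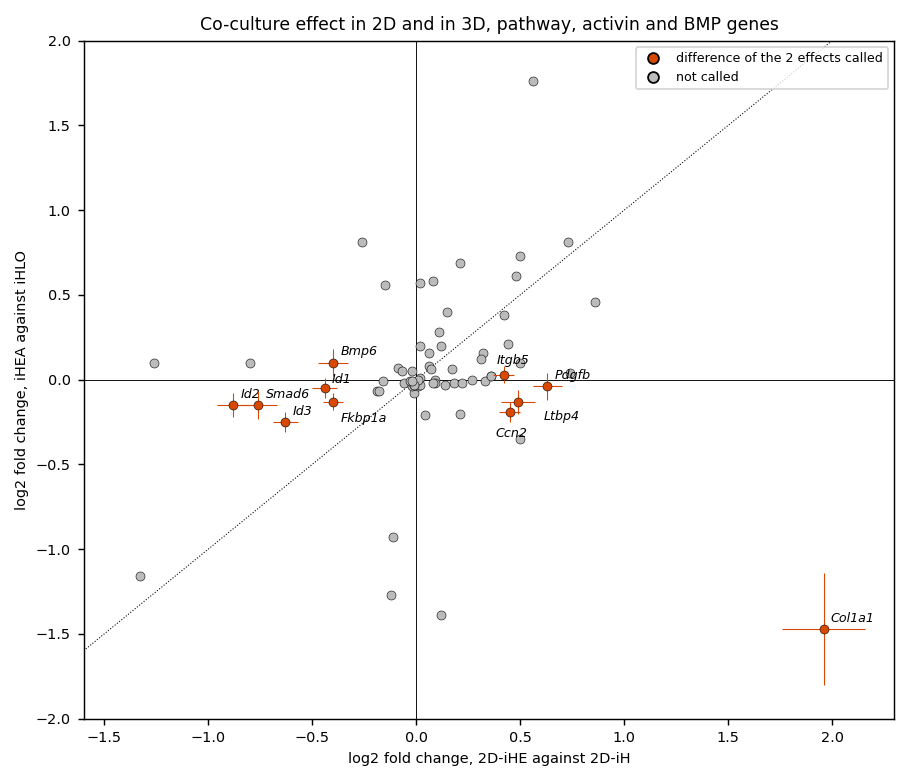
Log2 fold change with iECs in 2D (x axis) and in 3D (y axis) for 71 of the 73 fitted pathway, activin and BMP genes other than the members, Lox lying outside the axes. Orange points with SE bars are genes whose effects differed between 2D and 3D at an adjusted p under 0.05, and the dotted line marks equal effects. Target genes such as Pdgfb, Ccn2 and Col1a1 lie to the right of the line, and the Id genes to its left.

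Conversion of fibroblasts into 2D-iHs split the members evenly, with 5 above and 5 below fibroblasts. Of 14121 genes, 52.2% lay above and 39.9% below, and 45.7% were called higher and 38.2% lower. The matrix genes Ltbp2 (-10.28, SE 0.31) and Tgfbi (-5.61, SE 0.15) and the ligand gene Tgfb2 (-4.87, SE 0.28) differed most, and Tgm2 (1.73, SE 0.07), Skil (1.42, SE 0.06), Tgfb1 (1.15, SE 0.12) and Smad7 (0.89, SE 0.09) were higher in 2D-iHs. Of 58 other pathway genes fitted, 15 were higher and 37 lower. The largest changes were those of Itgb6 (7.77, SE 0.2, adjusted p = 6.9e-15) and Pdgfb (6.42, SE 0.14, adjusted p = 1.43e-15) upward, and of the collagen chain Col1a2 downward, which in fibroblasts exceeded 2D-iHs at least 131000-fold with 3 counts per library as the floor. The sizes of the 2 upward folds rest on few fibroblast counts, 9 and 5 for Itgb6 and 16 and 14 for Pdgfb. Of 26 targets, 7 were higher and 17 lower in 2D-iHs.

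In the livers, Tgfb1 (-1.61, SE 0.13) and Tgfb2 (-2.47, SE 0.41) were lower in adult than in fetal tissue, and Tgfbr2 (0.9, SE 0.05), Tgm2 (0.89, SE 0.06), Tgfbi (0.95, SE 0.12), Smad7 (0.61, SE 0.13) and Tgfbr1 (0.33, SE 0.08) were higher. So 5 members lay above, 2 below and 3 (Ltbp2, Skil and Pmepa1) overlapped, where 42.4% of all genes lay above and 48.6% below, and 40% were called higher and 43.8% lower. The median of all genes was -0.1 on the log2 scale, and 0.11 higher when DESeq2 size factors replaced TMM. Of 58 other pathway genes, 22 were higher and 27 lower in adult liver, and of 17 fitted BMP branch genes 13 were higher and 0 lower by edgeR or DESeq2 (1 lower at an unadjusted p under 0.05), led by the iron hormone Hamp (11.71, SE 0.15, adjusted p = 4.17e-18), with Id1, Id2 and Id3 among them. The Hamp fold rests on 8 and 5 counts in fetal liver. The 3 BMP branch genes that were not fitted lay below, with 60 and 60 counts of Bmpr1b, 48 and 46 of Grem1 and 23 and 26 of Nog in fetal liver against 0 or 1 count in each adult liver. Hmga2, an embryonic chromatin protein and target, was lower (-7.95, SE 0.17, adjusted p = 8.36e-16) on 2659 and 2674 counts in fetal and 7 and 3 counts in adult liver, so that the size of this fold rests on few adult counts. Cd109 was at 0 counts in both adult livers, at least 12.5-fold below fetal liver with 3 counts per library as the floor. Cell make-up differed alongside. Blood and Kupffer cell markers summed to 766 to 804.6 CPM in adult and 14663.6 to 15044.6 CPM in fetal liver. Of 6 fitted, 3 were higher in adult liver and 3 lower. The globin gene Hba-a1 was at 157.3 and 131.7 CPM in adult and 8257.3 and 8700.1 CPM in fetal liver. The Kupffer cell marker Clec4f was at 474.4 and 469.9 CPM in adult and 3.44 and 3.46 CPM in fetal liver. Fibroblast markers summed to 457.5 to 485.5 CPM in adult and 1777.5 to 2933.5 CPM in fetal liver. Hepatocyte markers summed to 536197.5 to 568006.6 CPM in adult and 10552.1 to 13374.7 CPM in fetal liver. The part of these markers in the values above was not tested.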

How the data were processed

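RNA from 14 libraries (7 conditions, 2 each) had been sequenced as 150 bp paired ends. The authors deposited raw counts per gene, and their methods and processing notes name Trimmomatic 0.36, HISAT2, Cufflinks, HTSeq and the mouse genome GRCm38; strand and multi-mapping settings were not given in the sources used here. Each library was grouped by its label. The second iHEA column carries contradictory numbers and was used by condition only.

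A gene was kept where log2(count + 1) averaged 3 or more in the libraries fitted (13409 in the 8 cultures, 14121 in all 14). Comparisons used edgeR 4.0.16 quasi-likelihood tests in R 4.3.3 with TMM scaling and Benjamini-Hochberg adjustment. 3D against 2D pooled 4 libraries a side, other culture comparisons used the 8 culture libraries, and the fibroblast and liver comparisons used all 14. The fits were tested on simulated data. Levels between genes were divided by the exon union of GENCODE M21. A group was at the floor at 3 counts or fewer per library. Alternatives were other filters, DESeq2 1.42.0 (size factors or Wald test), other sets of libraries, a replicate block and leaving out each library.

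Members, gene lists and tests were chosen with earlier results of these data known. The adjusted p planned for members in the co-culture comparisons is not given, since the choice of members may have used those values. The rule for named pathway, activin and BMP genes took the 3 largest called changes each way in 3D against 2D and the 2 largest each way elsewhere, and for each member the 2 genes most alike in log2 CPM (prior count 2). All other genes were named after their values were seen. Results of some genes that this rule names are not reported here.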

Additional observations from a re-analysis of the deposited data

Results flagged for a closer look

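The effect of iECs differed between 3D and 2D, by edgeR's test of the difference itself with adjusted p under 0.05, for genes that are not members and include the following, given as the log2 effect in 3D minus that in 2D. The difference was negative for Col1a1 (-3.44), Pdgfb (-0.68), Ccn2 (-0.64), Ltbp4 (-0.62) and Itgb5 (-0.38). It was positive for Id2 (0.72), Smad6 (0.6), Bmp6 (0.5), Id1 (0.39), Id3 (0.38) and Fkbp1a (0.27). A screen for a single library far from the other 3 of its format, over 20 groups of 4 libraries for the 10 members, marked 0; chance alone marks about 1 in 20 groups.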

How the results depend on the processing

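Counts of called pathway genes changed by more than 1.5 times in these cases. For 2D-iHEs against 2D-iHs, higher calls went from 12 to 19 in a fit of the 6 numbered culture libraries, with and without the replicate block, and to between 4 and 8 when single libraries were left out. For iHEAs against iHLOs, 8 were higher and 5 lower with no filter on low counts, and leaving out libraries gave 1 to 9 higher and 0 to 4 lower. For the difference of the co-culture effects, 4 were higher and 12 lower with no filter, 1 was higher with all 14 libraries in one fit, and leaving out libraries gave 0 to 5 higher and 4 to 12 lower. The cause was not tested. The counts for 3D against 2D, for fibroblasts and for livers stayed within 1.5 times under each alternative run. Equally numbered libraries did not deviate together (r = -0.045, -0.032 and 0.0083 over genes), so the block stands only for a shared number, and the iHEA pair could not enter it.

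Of 864 member log2 fold changes recomputed, 108 moved by more than their SE with no change of sign, 66 of 400 on leaving out 1 library and 42 of 464 under the other alternatives. Pmepa1 in 3D against 2D was -1.34 with and -1.33 without the replicate block in the 6 numbered culture libraries, which leave out both iHEA libraries, and Tgfb2 was 0.18 without the first 2D-iHE library in 2D co-culture and -1.69 without the second fetal liver library in the livers. Signs, 10 in all, reversed only when single libraries were left out, where values near 0 ranged from -0.18 to 0.4 for Tgfb1, -0.18 to 0.04 for Tgfbr1 and -0.03 to 0.02 for Tgfbr2 in iHEAs against iHLOs, from -0.08 to 0.03 for Tgm2 in iHEAs against 2D-iHEs, from -0.45 to 0.13 for Tgfb1, -0.18 to 0.01 for Skil and -0.09 to 0.26 for Tgfbi in the difference of co-culture effects, and from -0.67 to 0.22 for Pmepa1 and -0.01 to 0.14 for Skil in adult against fetal liver. With 2 libraries a condition, p-values measure the spread between libraries that may be technical, and genes such as Ltbp2 and Lox rest on few counts in the cultures.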
